A study of Mus musculus with 2 samples.

Results

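Naive pluripotency, the state of the early mouse epiblast that embryonic stem cells keep in culture, was followed through 10 marker genes outside the Klf family, namely Tfcp2l1, Tbx3, Prdm14, Spic, Jam2, Tcl1, Fbxo15, Pecam1, Dppa3 and Nlrp4f. The members were picked by gene symbol from the 18032 genes of the deposited table, and all 10 were found and passed the low-abundance filter. Polyadenylated RNA was sequenced from wild-type mouse cells in 2 states, with 1 library each. The cEpiSC library came from cells converted in culture towards epiblast stem cells, the primed state. They were plated on fibronectin in 2iLIF, a serum-free medium, and after 24 h given N2B27 medium containing activin A (20 ng/ml) and FGF2 (12 ng/ml) for 2 days. The mESC library came from the embryonic stem cell line E14TG2a, a single line, held in the ground state without feeder cells in 2iLIF. That medium is N2B27 with LIF at 100 units/ml, the ERK pathway inhibitor PD0325901 at 1 µM and the GSK3 inhibitor CHIR99021 at 3 µM.

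LIF acts through STAT3, and the pair of inhibitors shields the cells from differentiation signals of FGF and releases Wnt targets. Together these inputs hold up a network of transcription factors, in which Tfcp2l1, Tbx3 and Prdm14 are known regulators alongside Esrrb, Nanog and the Klf factors. When the cells are moved into FGF and activin, that network is taken down and the genes of the postimplantation epiblast come on. The other members are better known as marks of the state than as its regulators.

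The libraries summed to 19956736 (cEpiSC) and 19843731 (mESC) estimated counts over all genes. The labels were checked against markers. Pou5f1, which encodes Oct4 and marks both states, stood at 922 CPM in cEpiSC and 841 CPM in mESC. Of 5 genes listed for both states, Pou5f1 included, 3 lay within 2-fold and 2 were higher in cEpiSC. The higher ones were Utf1, at 710 CPM in cEpiSC and 100 CPM in mESC, and Lin28a, at 162 CPM in cEpiSC and 69.8 CPM in mESC. For 5 of 5 genes listed as primed or formative cEpiSC exceeded mESC by 2-fold or more, with Fgf5 at 276 counts in cEpiSC and 0 counts in mESC. The primitive streak gene T, also known from epiblast stem cells and kept here in the T-box list, had 10 counts in cEpiSC and 40 counts in mESC (log2 ratio -1.88). CPM are counts relative to the library total, scaled by the TMM method, and suit one gene between libraries. TPM, which also divide by transcript length, are used where levels of genes are set against each other, unless CPM is named. With 1 library per state no p-value can be had and no difference below has a replicate check. Intervals are exact 95% intervals and cover counting error only. A gene is called lower or higher at 2-fold or more on the log2 ratio of cEpiSC over mESC, by size alone.

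Of the 10 members, 6 were at least 2-fold lower in cEpiSC (Tfcp2l1, Tbx3, Prdm14, Spic, Jam2 and Tcl1), 3 lay within 2-fold (Fbxo15, Pecam1 and Dppa3) and 1 was higher (Nlrp4f). Among all 13243 tested genes, defined as reaching 1 CPM in either library, 9.25% were at least 2-fold lower, 13.6% at least 2-fold higher and 77.2% within 2-fold. For each of the 6 lower members the whole counting interval was past 2-fold, but not for Nlrp4f. Of the 6, 4 (Tfcp2l1, Tbx3, Spic and Jam2) were at least 8-fold lower, as were 1.12% of tested genes. All 10 members exceeded 20 CPM in mESC, and among the 7602 genes that did so 8.33% were at least 2-fold lower. The median log2 ratio over the members was -1.85, beside -0.02 over all tested genes. The members were chosen with earlier results known, so these counts describe them and are no test. The summed level of the 10 genes was 438.5 TPM in cEpiSC and 1158.5 TPM in mESC. In bulk RNA, fewer cells that express a gene and less of its RNA per cell cannot be told apart, nor can the state of the cells and the medium that holds it.

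**Figure D1:**
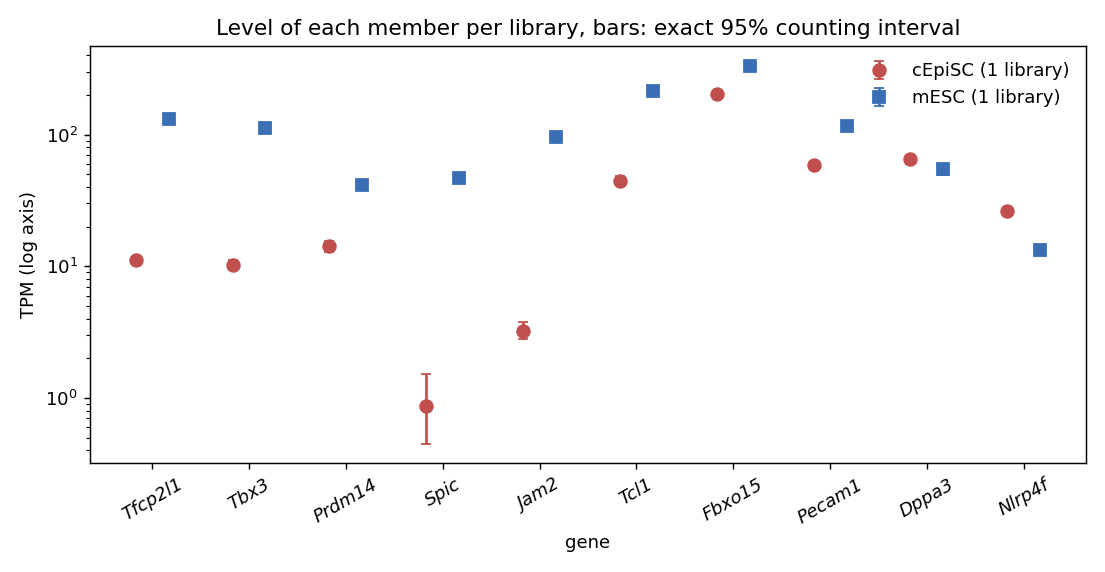
TPM of each member on a log axis in cEpiSC (red circles) and mESC (blue squares), 1 library each, with exact 95% counting intervals. Spic and Jam2 are farthest apart, Spic at 0.87 TPM in cEpiSC and 47.1 TPM in mESC and Jam2 at 3.24 TPM in cEpiSC and 96.5 TPM in mESC, while Dppa3 and Nlrp4f have the cEpiSC point on top.

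Promoter sequences from RefSeq (GRCm38.p6) were matched by symbol for 4 members and are shown because their CpG content differs widely. The 250 bases before the start in the promoter table, which for Tfcp2l1 lies just inside the outer limit of the gene, are given 5′ to 3′ on the strand of the gene, with CpG dinucleotides, the sites at which mammalian DNA is methylated, in capitals. They lie at chr1:118627695-118627944, plus strand (Tfcp2l1), chr10:88683024-88683273, minus strand (Spic), chr12:105222738-105222987, minus strand (Tcl1) and chr13:65205717-65205966, minus strand (Nlrp4f).
Tfcp2l1: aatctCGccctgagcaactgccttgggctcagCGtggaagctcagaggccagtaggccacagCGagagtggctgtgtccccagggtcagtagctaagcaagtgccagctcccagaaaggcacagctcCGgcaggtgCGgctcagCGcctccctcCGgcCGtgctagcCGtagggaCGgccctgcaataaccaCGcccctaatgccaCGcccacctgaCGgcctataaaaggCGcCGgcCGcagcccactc
Spic: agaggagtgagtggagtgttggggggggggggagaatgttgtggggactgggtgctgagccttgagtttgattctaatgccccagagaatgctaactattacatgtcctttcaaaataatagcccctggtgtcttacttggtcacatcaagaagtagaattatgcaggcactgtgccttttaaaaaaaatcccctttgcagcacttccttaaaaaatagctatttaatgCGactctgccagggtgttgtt
Tcl1: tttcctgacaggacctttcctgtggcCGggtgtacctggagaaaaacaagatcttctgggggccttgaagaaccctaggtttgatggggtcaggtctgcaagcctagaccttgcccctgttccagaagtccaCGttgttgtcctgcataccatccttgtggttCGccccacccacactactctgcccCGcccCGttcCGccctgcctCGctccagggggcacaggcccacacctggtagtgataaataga
Nlrp4f: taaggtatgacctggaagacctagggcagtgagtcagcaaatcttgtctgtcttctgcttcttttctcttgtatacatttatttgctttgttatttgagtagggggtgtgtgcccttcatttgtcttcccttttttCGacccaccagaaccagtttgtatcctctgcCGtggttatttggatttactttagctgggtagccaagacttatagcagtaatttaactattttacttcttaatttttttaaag
The window of Tfcp2l1 held 16 CpG and was 65.2% G or C, whereas that of Spic held 1 CpG at 44.8%, although both genes were among the 4 lowest members. The window of Tcl1 held 7 CpG at 57.6%, and that of Nlrp4f, the one higher member, held 2 at 38.4%. Over all 32851 promoter windows of this length the medians were 6 CpG and 52.4%. The 3 lower members with a sequence spanned low to high CpG content.

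The same windows were searched on both strands for 6 motifs. TTCNNNGAA, bound by STAT factors, is present in 7.02% of all windows, AAGGTCA, a site of Esrrb and its relatives, in 4.08%, the octamer ATGCAAAT in 1.60%, and the E-box CACGTG in 6.02%. None of these 4 was found in any of the 4 members' windows, which says only that these letters are not in these bases. The GC box GGGCGG, present in 32.7% of windows, occurred at 2 places in Tcl1, starting 64 and 54 bases before that start. TATAAA, present in 12.4% of windows and added after the sequences had been seen, occurred in Tfcp2l1 alone of the 4, starting 28 bases before that start.

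All 4 transcription factor genes among the members were at least 2-fold lower in cEpiSC, and they ended at different levels. Tfcp2l1 (Entrez 81879, chromosome 1, 118627923 to 118685168 in GRCm38.p6, plus strand) encodes a factor of the CP2 family and is a known target of STAT3. It stood at 11.2 TPM (95% interval 10.6 to 11.9) in cEpiSC and 132 TPM (130.004 to 135) in mESC, from 1214 counts in cEpiSC and 13093 in mESC. This is 11.4-fold lower (10.8 to 12.1), a log2 ratio of -3.51, and left the gene at 8.77% of its mESC level. Only 1 other tested gene, Ckb, was both at least as abundant in mESC by CPM and at least as far down. That ranking by CPM is not corrected for transcript length, which was effectively 9189 bases for Tfcp2l1 in cEpiSC.

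Tbx3 (Entrez 21386, chromosome 5, 119670534 to 119684724, plus strand), a T-box factor linked to signalling through PI3K and Akt in mouse embryonic stem cells, closely followed Tfcp2l1. It had 554 counts in cEpiSC and 5520 in mESC, or 10.2 TPM (9.39 to 11.1) in cEpiSC and 111 TPM (108 to 114) in mESC, which is 10.5-fold lower (9.65 to 11.5) and a log2 ratio of -3.39. The counting intervals of the folds of Tbx3 and Tfcp2l1 overlapped. The gene overlaps the non-coding RNA gene Tbx3os1 on the opposite strand by 975 bases, and whether the authors counted by strand is not given in the sources used here. Tbx3os1 was not analysed here.

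Spic (Entrez 20728, chromosome 10, 88675269 to 88683023, minus strand), an Ets factor also known for its role in iron-recycling macrophages of the spleen, had the lowest log2 ratio of all members. It had 12 counts in cEpiSC and 596 in mESC, or 0.87 TPM (0.4495 to 1.52) in cEpiSC and 47.1 TPM (43.4 to 51.05) in mESC. The gene was 52.5-fold lower (29.8 to 102) with a log2 ratio of -5.49, and the small count in cEpiSC makes the size of the fold the least certain of the group. The macrophage markers Ptprc, Csf1r and Adgre1 were at 0 counts in both libraries. Cd68 had 199 counts in cEpiSC and 306 in mESC, and Itgam 219 in cEpiSC and 10 in mESC. Their part in the Spic values was not tested.

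Prdm14 (Entrez 383491, chromosome 1, 13113428 to 13127163, minus strand) encodes a zinc finger protein that acts with Polycomb to repress FGF receptor and DNA methyltransferase genes, and is also needed to form primordial germ cells. Its fold decrease was the smallest of the 4 factors, with 14.2 TPM (12.9 to 15.7) in cEpiSC and 41.5 TPM (39.1 to 43.98) in mESC, from 420 counts in cEpiSC and 1119 in mESC. That is 2.82-fold lower (2.52 to 3.16), a log2 ratio of -1.49. In mESC its level was below those of Tfcp2l1 and Tbx3, and in cEpiSC it was above both, as the intervals in TPM did not overlap in either library. Its known corepressor gene Cbfa2t2 stood at 88.8 CPM in cEpiSC and 107 CPM in mESC, and the Polycomb genes Ezh2, Suz12 and Eed also lay within 2-fold. Of the receptors it is known to repress, Fgfr2 was higher, at 163 counts in cEpiSC and 33 in mESC (log2 ratio 2.16, 1.68 to 2.81), and Fgfr1 lay within 2-fold (-0.52, -0.58 to -0.46). The part of Prdm14 in the receptor values was not tested, and the medium also differed between the libraries.

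The adhesion genes Jam2 and Pecam1 were both lower on the log2 scale but by very different amounts. Jam2 (Entrez 67374, chromosome 16, 84774123 to 84826380, plus strand) encodes an immunoglobulin-type junctional adhesion molecule that pairs with itself and with the product of Jam3. It had 181 counts in cEpiSC and 4927 in mESC, or 3.24 TPM (2.79 to 3.75) in cEpiSC and 96.5 TPM (93.8 to 99.3) in mESC. At 28.8-fold lower (24.8 to 33.6) and a log2 ratio of -4.83, it was the only member for which no other tested gene was both as abundant in mESC by CPM and as far down. Here too the ranking by CPM is not corrected for transcript length. Pecam1 (Entrez 18613, chromosome 11, 106654213 to 106715281, minus strand), which encodes CD31, a surface protein of endothelium that embryonic stem cells also carry, stood at 58.3 TPM (55.9 to 60.8) in cEpiSC and 117 TPM (113 to 121) in mESC. From 2209 counts in cEpiSC and 4050 in mESC it was 1.94-fold lower (1.84 to 2.04), so its interval included 2-fold. Its log2 ratio of -0.95 lay at the edge of the call. It ranged between -0.99 and -0.86 over the settings tried, and the plain ratio of the TPM, with no pseudocount, was just past 2-fold at a log2 ratio of -1.003.

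Endothelial markers did not give a common pattern beside Pecam1. Of 8 such genes in the table, 5 were tested, with 2 lower (Vwf and Kdr), none higher and 3 within 2-fold. Their summed level was 92.9 CPM in cEpiSC and 100.4 CPM in mESC, most of it from Egfl7, Tek and Vwf. The defining gene Cdh5, for VE-cadherin, had 1 count in cEpiSC and 2 in mESC, and Erg had 0 in both. The part of the other markers in the Pecam1 values was not tested.

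**Figure D2:**
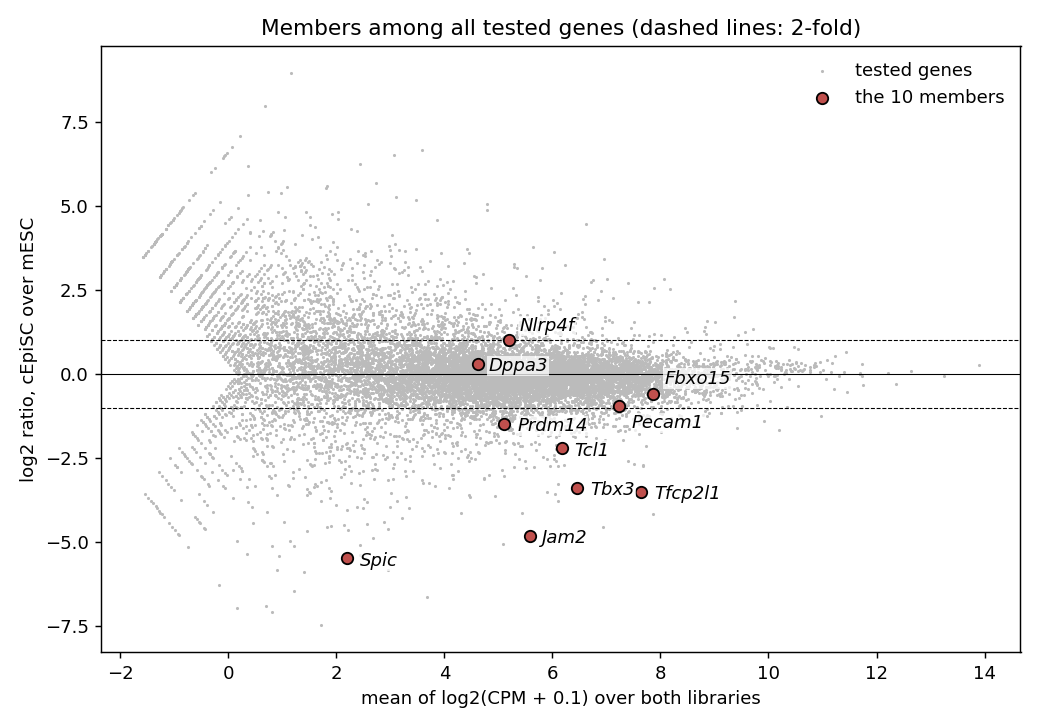
Log2 ratio of cEpiSC over mESC against the mean of log2(CPM + 0.1) over both libraries, for 13243 tested genes (grey) and the 10 members (red), with dashed lines at 2-fold. Tfcp2l1, Tbx3 and Jam2 lie in a sparse region at high abundance, and Spic, with 12 counts in cEpiSC, lies at lower abundance.

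Tcl1 and Fbxo15 had the highest TPM of the members in mESC, and of the pair only Tcl1 was at least 2-fold lower in cEpiSC. Tcl1 (Entrez 21432, chromosome 12, 105216753 to 105222737, minus strand) encodes a small protein that binds Akt kinases and raises their activity. It stood at 44.7 TPM (41.4 to 48.2) in cEpiSC and 216 TPM (208 to 223) in mESC, from 683 counts in cEpiSC and 3004 in mESC, and was thus 4.65-fold lower (4.28 to 5.06) with a log2 ratio of -2.21. Of its kinase partners, Akt1 stood at 66.2 CPM in cEpiSC and 70.1 CPM in mESC and Akt2 at 82.7 CPM in cEpiSC and 149.9 CPM in mESC, both within 2-fold.

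Fbxo15 (Entrez 50764, chromosome 18, 84934552 to 84981476, plus strand) encodes an F-box protein, the part of an SCF ubiquitin ligase that binds substrates, and is known as a reporter locus for reprogramming. It was the most abundant member in both libraries, at 205 TPM (198 to 211) in cEpiSC and 329 TPM (321 to 338) in mESC, from 3868 counts in cEpiSC and 5580 in mESC. That is 1.53-fold lower (1.46 to 1.59), a log2 ratio of -0.61, which 17.8% of tested genes equalled or fell below. The SCF core genes Skp1a, Cul1 and Rbx1 had log2 ratios of 0.50, 0.10 and 0.19. Timm21, a gene for a mitochondrial import factor, lies inside Fbxo15 on the opposite strand over 5340 bases. It had 210 counts in cEpiSC and 82 in mESC (log2 ratio 1.26), and since counting by strand is not stated, reads of this pair cannot be told apart with certainty.

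Dppa3 and Nlrp4f, both known from the egg, were the members above a log2 ratio of 0, while Prdm14, which also acts in germ cells, was below it. Dppa3 (Entrez 73708, chromosome 6, 122626424 to 122630271, plus strand), also called Stella, encodes a maternal factor that guards methylation in the zygote and marks primordial germ cells. It had 554 counts in cEpiSC and 427 in mESC, or 64.9 TPM (59.6 to 70.5) in cEpiSC and 54.6 TPM (49.6 to 60.1) in mESC. The log2 ratio of 0.29 (0.11 to 0.48) was above 0 in every setting, between 0.13 and 0.37, and within the range of most genes, with 68.8% of tested genes at or below it. Nlrp4f (Entrez 97895, chromosome 13, 65177111 to 65205716, minus strand), of the NLR family, belongs to a group expressed in mouse oocytes. It stood at 26.2 TPM (24.6 to 27.8) in cEpiSC and 13.4 TPM (12.2 to 14.6) in mESC, from 1059 counts in cEpiSC and 496 in mESC. Its log2 ratio of 1.01 (0.86 to 1.17) lay at the edge of the 2-fold call, and was 0.92 with TPM.

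Log2 ratios of maternal oocyte genes and of germ cell genes lay on both sides of 0. Of 11 maternal genes 6 were tested, with none lower, 3 higher (Zbed3, Npm2 and Padi6) and 3 within 2-fold (Ooep, Tle6 and Khdc3). With TPM or a filter at 5 CPM 1 was higher, and Npm2 and Padi6 had few reads. Zbed3 stood at 56.5 CPM in cEpiSC and 28.1 CPM in mESC (log2 ratio 1.01, 0.86 to 1.16, at the edge of the call), and Khdc3 at 58.2 CPM in cEpiSC and 104 CPM in mESC (-0.84). Of 11 germ cell genes 10 were tested, with 4 lower, 3 higher and 3 within 2-fold. The counts of both lists are to be read against 9.25% lower and 13.6% higher among all tested genes. Kit, the receptor that primordial germ cells need, stood at 68.7 CPM in cEpiSC and 413 CPM in mESC (-2.59). Dazl was at 43.6 CPM in cEpiSC and 181 CPM in mESC (-2.05). Tfap2c, which acts beside Prdm14 in forming primordial germ cells, was at 36.01 CPM in cEpiSC and 78.3 CPM in mESC. Its log2 ratio of -1.12 (-1.25 to -0.99) had an interval that included 2-fold. On the other side were Mael, at 36.1 CPM in cEpiSC and 5.74 CPM in mESC (2.63), and Ddx4, the Vasa gene, at 29.1 CPM in cEpiSC and 10.2 CPM in mESC (1.51). Mael and Ddx4 guard the germ line genome or its RNA.

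The order of the members by TPM differed between the libraries. In cEpiSC it ran from Fbxo15 through Dppa3, Pecam1, Tcl1, Nlrp4f, Prdm14, Tfcp2l1, Tbx3 and Jam2 to Spic, and the intervals of neighbours overlapped for Dppa3 with Pecam1 and for Tfcp2l1 with Tbx3. In mESC the order was Fbxo15, Tcl1, Tfcp2l1, Pecam1, Tbx3, Jam2, Dppa3, Spic, Prdm14 and Nlrp4f, with overlaps of Pecam1 with Tbx3, Dppa3 with Spic and Spic with Prdm14. Dppa3 was second in cEpiSC and the seventh in mESC. Tfcp2l1 lay at percentile 40.9 of tested genes by TPM in cEpiSC and at 90.5 in mESC, Jam2 at 19.8 in cEpiSC and 86.2 in mESC, and Spic at 6.25 in cEpiSC and 72.8 in mESC. Fbxo15 kept a high place, at 94.7 in cEpiSC and 96.6 in mESC.

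The relatives of the lower members are read against all tested genes, of which 9.25% were at least 2-fold lower and 77.2% within 2-fold. For Tfcp2l1, all 5 other genes of the CP2 and grainyhead family lay within 2-fold, with Tfcp2, the closest by name, at 11.9 TPM in cEpiSC and 11.7 TPM in mESC. Prdm14 was the only PRDM gene at least 2-fold lower among those tested, and with no filter 2 of the rarer PRDM genes were lower as well. In the adhesion list beside Jam2 none of 5 tested genes was lower and 2, Esam and Clmp, were higher, though 1 with TPM and 0 among genes at 5 CPM or more. F11r, which encodes JAM-A, stood at 52.1 TPM in cEpiSC and 49.9 TPM in mESC, and Jam3 at 14.1 TPM in cEpiSC and 9.53 TPM in mESC (log2 ratio 0.61). Jam2 was thus the most abundant of these 3 JAM genes in mESC and the least abundant in cEpiSC. Of the TCL1 family, Mtcp1 was tested and lay at 0.67.

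Beside Tbx3, 4 of 10 other tested T-box genes were lower, 2 higher and 4 within 2-fold. With TPM 2 were lower, and with FPKM or a filter at 5 CPM 1 was lower. T, Tbx5 and Tbx18 had few reads. In each of these settings 1 was higher. Tbx15 had 17 counts in cEpiSC and 402 in mESC (log2 ratio -4.49, -5.44 to -3.95). Tbx5, which neighbours Tbx3 on chromosome 5, had 0 counts in cEpiSC, which allows up to 0.147 CPM, and 35 counts in mESC. Eomes and Mga lay within 2-fold. The Ets relatives of Spic were rare: Spi1 had 48 counts in cEpiSC and 121 in mESC, and Spib 35 in cEpiSC and 8 in mESC.

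In the families of Fbxo15 and Nlrp4f the counts of lower genes, 1 each, are likewise to be read against 9.25% of all tested genes. Of 34 other tested FBXO genes, 29 lay within 2-fold, 4 were higher and 1, Fbxo10, was lower, and with TPM 2 were higher. Each had a lower TPM than Fbxo15, which alone gave 205 TPM in cEpiSC and 329 TPM in mESC, while the other 35 listed genes together gave 736 TPM in cEpiSC and 700.2 TPM in mESC. Among 7 other tested NLRP genes 5 were higher, 1 lower and 1 within 2-fold, but most had few reads, and with TPM 1 was higher and none lower. Nlrp14, an oocyte gene, stood at 25.5 CPM in cEpiSC and 9.10 CPM in mESC (1.47), and Nlrp4c, a close relative of Nlrp4f with partly shared reads, at 18.7 CPM in cEpiSC and 17.8 CPM in mESC (0.07). The deposited counts of all 10 members, Nlrp4f included, were whole numbers to within 0.005. Dppa2 and Dppa4, which share only a naming history with Dppa3, were higher, Dppa2 at 169 CPM in cEpiSC and 51.9 CPM in mESC and Dppa4 at 160.3 CPM in cEpiSC and 60.4 CPM in mESC.

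**Figure D3:**
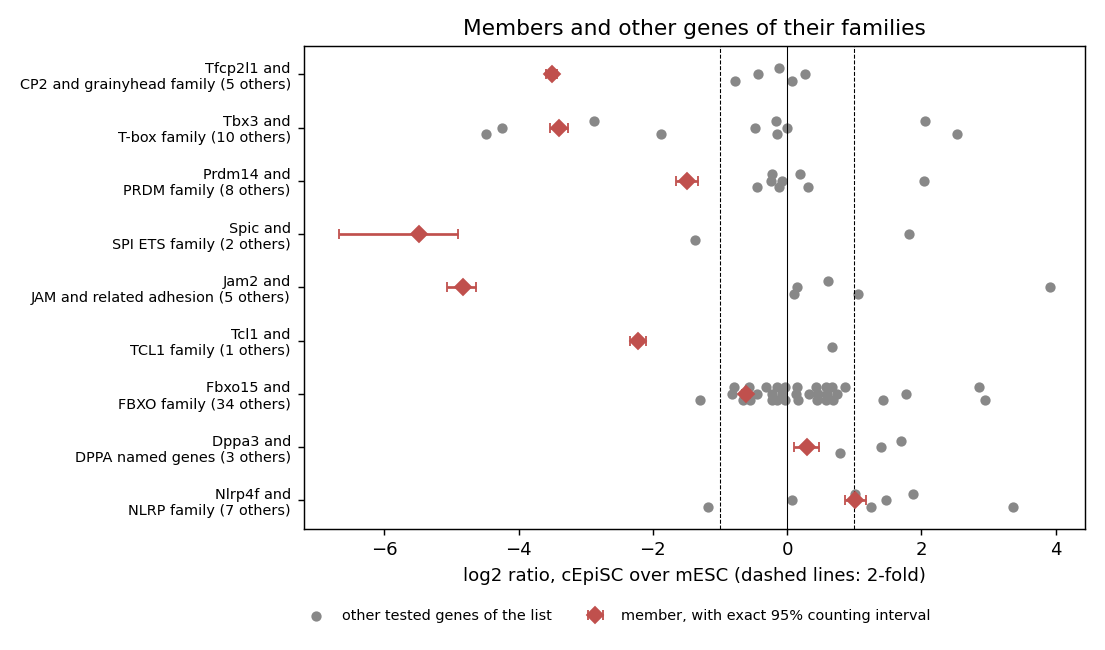
Log2 ratio of cEpiSC over mESC for 9 members (red diamonds, with exact 95% counting intervals) and the other tested genes of each family list (grey points). Tfcp2l1, Prdm14, Spic, Jam2 and Tcl1 lie left of all tested relatives, which number only 2 for Spic and 1 for Tcl1. Tbx3, Fbxo15 and Nlrp4f lie among theirs. Dppa3 lies left of the 3 tested genes of its list, which was drawn up by gene name and is not a family.

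Of 13 further genes tied to the naive state, 7 were at least 2-fold lower in cEpiSC, 1 higher and 5 within 2-fold, at a median log2 ratio of -1.01. Among all tested genes 9.25% were at least 2-fold lower and 13.6% at least 2-fold higher. With library totals, FPKM or centring on effective length, 6 of the 13 were lower. The lowest of the 13 was Tdh, for threonine dehydrogenase, at 77.0 TPM in cEpiSC and 532 TPM in mESC (-2.74). Klf2 followed at 101 TPM in cEpiSC and 462 TPM in mESC (-2.14), Nr5a2 at 14.4 TPM in cEpiSC and 63.1 TPM in mESC (-2.08), and Klf4 at 47.2 TPM in cEpiSC and 190 TPM in mESC (-1.97). The factors Klf2, Nr5a2 and Klf4 hold up the network beside Tfcp2l1 and Tbx3. None of the 13 was as low in log2 ratio as Spic, Jam2, Tfcp2l1 or Tbx3. Above 0 were 3 of the 13. Gbx2, the higher one, stood at 11.4 TPM in cEpiSC and 4.65 TPM in mESC (1.32, 1.01 to 1.68). Dppa5a, at 5966 TPM in cEpiSC and 3548 TPM in mESC (0.80), and Fgf4 (0.62) lay within 2-fold. Stat3, which acts upstream of Tfcp2l1, was at 27.1 TPM in cEpiSC and 56.4 TPM in mESC (-1.01, -1.11 to -0.92), so its interval crossed 2-fold.

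The chromosomal neighbours of the members were read as well, a comparison added after the data had been seen. Within 500 kb, up to 2 tested genes on each side gave 33 flanking genes, of which 26 lay within 2-fold, 6 were lower and 1 was higher, at a median log2 ratio of -0.43. Among all tested genes 77.2% lay within 2-fold, 9.25% were lower and 13.6% higher, at a median of -0.02. Of the lower flanking genes, Tbx5, Mybpc1 and Bdkrb2 had few reads, with 0, 7 and 4 counts in cEpiSC. Jam2 differed from the genes on both sides: Atp5j, 1.49 kb away, was at 95.5 CPM in cEpiSC and 100.2 CPM in mESC, and Mrpl39, 38.9 kb away, at 87.5 CPM in cEpiSC and 103 CPM in mESC, while Jam2 was at 8.84 CPM in cEpiSC and 255 CPM in mESC. Around Tfcp2l1, Clasp1 had a log2 ratio of -0.48 and Gli2, a Hedgehog pathway factor 149 kb away, one of -1.82, with 28.2 CPM in cEpiSC and 99.7 CPM in mESC. Beside Spic, Mybpc1 (7 counts in cEpiSC and 55 in mESC) and Chpt1 (274 in cEpiSC and 586 in mESC) were lower, but Arl1 and Utp20 on the other side lay within 2-fold. Dppa3 sits in a cluster of pluripotency genes, where its neighbour Gdf3, 16.3 kb away, was at 175 CPM in cEpiSC and 157 CPM in mESC (0.16), while Nanog, 77.2 kb away, was at 642 CPM in cEpiSC and 1218 CPM in mESC (-0.92) with partly shared reads. The glucose transporter gene Slc2a3, 97.5 kb away, was lower, at 1302 CPM in cEpiSC and 3087 CPM in mESC (-1.25). Dppa3 and Gdf3 were thus above 0 and Nanog and Slc2a3 below, within about the same stretch of chromosome 6.

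**Figure D4:**
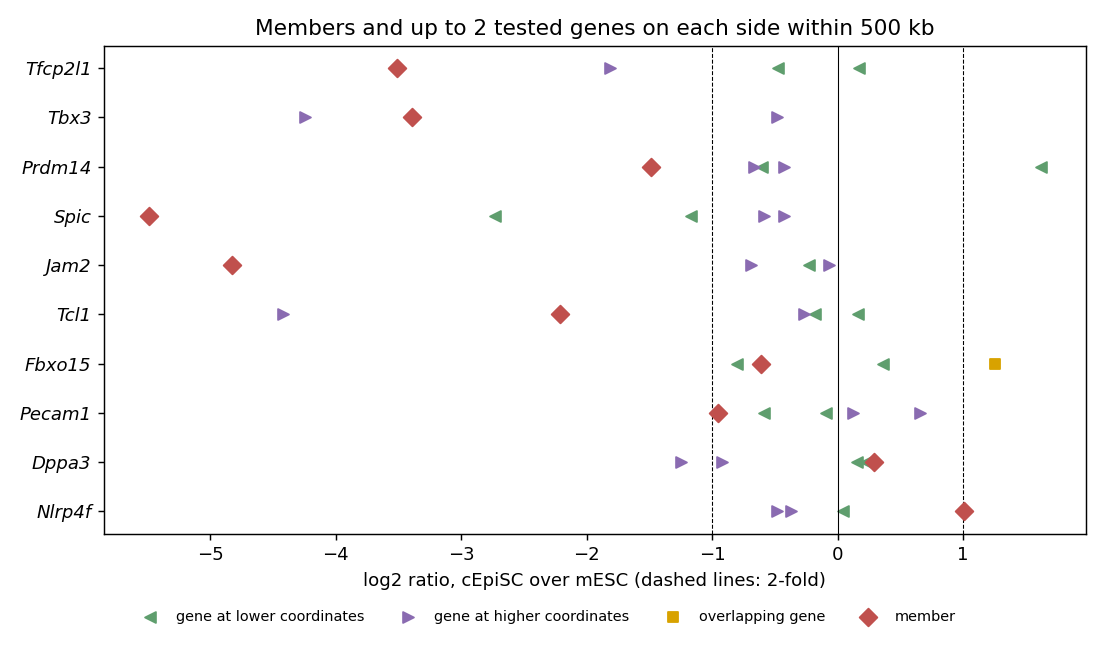
Log2 ratio of cEpiSC over mESC for each member (red diamonds) and for up to 2 tested genes on each side within 500 kb (triangles), with Timm21 inside Fbxo15 as a square and dashed lines at 2-fold. Most triangles lie within 2-fold, and the 2 nearest genes to the right of Dppa3, Nanog and Slc2a3, lie left of 0.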

How the data were processed

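Polyadenylated RNA of 2 libraries was analysed, 1 each of cEpiSC and mESC. Per the submitters' processing notes, HISAT2, Bowtie2, RSEM 1.3.1, DESeq2 1.34.0 and the build GRCm38.p6 were used. The sources used here do not state each tool's role, the annotation or the use of strand. The deposited read counts are estimated counts, fractional for 11.9% of genes in cEpiSC and 11.3% in mESC. The deposited TPM and FPKM were scaled by transcript length and library total by the authors. Other per-sample columns numbered 0.

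Estimated counts were rounded to whole numbers. TMM factors from edgeR 4.0.16 (R 4.3.3) were 1.03 for cEpiSC and 0.975 for mESC. Genes reaching 1 CPM in either library count as tested, and calls go by size. Log2 ratios used a prior count of 2. Folds omit it, and their intervals are exact conditional (Clopper-Pearson) 95% intervals. Intervals of levels are exact Poisson. No p-value was computed. The values count reads, which PCR can duplicate, so intervals and floors cover counting error alone. A count of 0 allows up to 3 counts, or 0.147 CPM in cEpiSC and 0.155 CPM in mESC.

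The members and gene lists were chosen with earlier results of these data known. Named genes are the 10 members, in each list up to 4 genes at 10 CPM or more with the largest absolute log2 ratio, and for each member the gene nearest in log2 CPM. Other genes were named after their values were seen. Alternatives were DESeq2 1.42.0 size factors, library totals, other filters and prior counts, TPM or FPKM with a pseudocount of 1, and centring on 10 classes of effective length. The ratio calculation was tested on simulated data. Some genes of the lists are not reported here.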

Additional observations from a re-analysis of the deposited data

How the results depend on the processing

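The 6 lower members were the lower ones under all 9 alternatives, and their log2 ratios stayed below -1.32. The count of higher members, 1 (Nlrp4f), was 0 with TPM and 0 with FPKM, where its log2 ratio was 0.92 and 0.99. The median over the members ranged from -1.90 to -1.72. Spic moved most, to -4.14 with FPKM, since a pseudocount of 1 is large beside its level in cEpiSC. No member's ratio changed sign. Of all tested genes, 1225 were at least 2-fold lower, but 680 with FPKM. Those higher numbered 1796 of 13243, but 2712 of 16854 with no filter and 970 of 11046 with a filter at 5 CPM. With TPM they numbered 1090 and with FPKM 945, of the same 13243. No paired analysis was possible because each state has 1 library, and for the same reason no library could be left out. Depth limits Spic in cEpiSC (12 counts, interval 6.20 to 20.96).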

Other observations

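Dividing each deposited count by its FPKM and the library total gives an effective transcript length, which can move when reads are assigned to other isoforms. For 8 of the 9 members with 100 or more counts in both libraries the lengths differed by less than 0.37%, with Tcl1 at 0.36% as the largest. Fbxo15 differed by 2.08%, at 1604 bases in cEpiSC and 1571 bases in mESC. Of 9931 genes with 100 or more counts in both libraries, 84.7% differed by less than Fbxo15, and 74.1% lay within 1%.

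For each member the gene closest to it in log2 CPM of both libraries was found, a likeness over 2 libraries only. Dppa3 and Mrpl47 were 0.003 apart, Fbxo15 and Ncor1 0.030, Pecam1 and Cldn4 0.036, Prdm14 and Ckmt1 0.042, and Nlrp4f and Akap8l 0.042. Tcl1 and Myof were 0.10 apart. The members farther down had no such close match, with Dmgdh 0.37 from Spic, Jak3 0.52 from Tbx3, Lama1 0.53 from Jam2 and Tdh 0.55 from Tfcp2l1.

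Transcripts of the rare cell state that resembles the 2-cell embryo were near 0 in mESC. Zscan4f had 62 counts in cEpiSC and 0 in mESC, with reads partly shared among Zscan4 copies. Over the 8 listed genes of that state the summed level was 7.09 CPM in cEpiSC and 0.258 CPM in mESC, and Tcstv1 was at 0 counts in both.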
